A study of Mus musculus with 20 samples.

Results

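Tumour pieces of the liver were compared with non-tumour pieces in mice that had been fed a high-fat diet and had not been exercised. The comparison rests on 8 of the 20 libraries of the study, 4 from tumour pieces and 4 from non-tumour pieces, chosen by the sample titles and not by any measured value. All mice of the study were male, wild type and of a strain that the labels spell C56BL/6. As pups they had 50 µL of 0.5% 7,12-dimethylbenz(a)anthracene (DMBA), a chemical carcinogen, put on the back on postnatal day 4 to 5. From then on the dams and pups of these 8 libraries received a diet with 60 kcal% fat, and pups were weaned onto it at 4 weeks. Liver was taken at 35 weeks of age. The labels describe these mice as obese and weighing over 45 g. The non-exercised mice stayed in their cages in the room of the exercised mice. Those exercised mice gave 8 further libraries, from tumour and non-tumour pieces after 5 weeks of treadmill training and 10 weeks of running. They enter here through 1 test and through the levels of Alb and Afp. The remaining 4 libraries came from non-exercised DMBA-treated mice on a diet with 12 kcal% fat, and their levels are given below as the normal-diet level. The labels state killing within 2 h for the high-fat mice and give no such time for the normal-diet mice. The time of killing may therefore differ between the diets. Titles number the mice 1 to 4 in each group, and a tumour and a non-tumour piece with the same number were read as pieces of 1 mouse.

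Hepatocytes, the main cells of the liver, make most plasma proteins, turn over amino acids and lipids, and detoxify drugs, and they divide this work by position: those around the central vein make glutamine and carry many cytochrome P450 enzymes, while those around the portal vein make urea and glucose. Liver tumours in mice commonly arise from hepatocytes. Such tumours can re-express genes of the fetal liver, such as alpha-fetoprotein, and enter the cell cycle, while parts of the adult programme are lost.

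The 8 libraries held 16471378 to 19824518 counts each. Levels are given as CPM, the share of a library's counts on sizes scaled by the TMM method of edgeR, and 4 values in a row are those of mice 1 to 4. Log2 fold changes are given with their SE from edgeR's quasi-likelihood fit, and adjusted p-values are Benjamini-Hochberg values over all 14428 genes tested. A gene was called when that value was under 0.05, and "rose" and "fell" are used of called genes only. The tumour libraries differed more among themselves than the non-tumour libraries did, with correlations of log2 CPM of 0.934 to 0.979 between tumours and 0.98 to 0.988 between non-tumour pieces. Tumour 3 lay nearest the non-tumour pieces: on the first principal component of the 8 libraries (69.6% of the variance) the non-tumour pieces lay at -59.8, -55.3, -46.8 and -40, and the tumours at 93.4, 64.4, 1.7 and 42.4. The tumours were graded along it: tumours 1 and 3 were the least alike (correlation 0.934). Tumours 3 and 4 (0.974) were about as alike as tumours 1 and 2 (0.975). The defining hepatocyte transcripts were abundant in every library, including Alb, Apoa1, Ttr, Serpina1a, Cps1 and Hnf4a. Bulk RNA cannot tell fewer cells of a type from less RNA per cell, which holds for every result below.

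**Figure D1:**
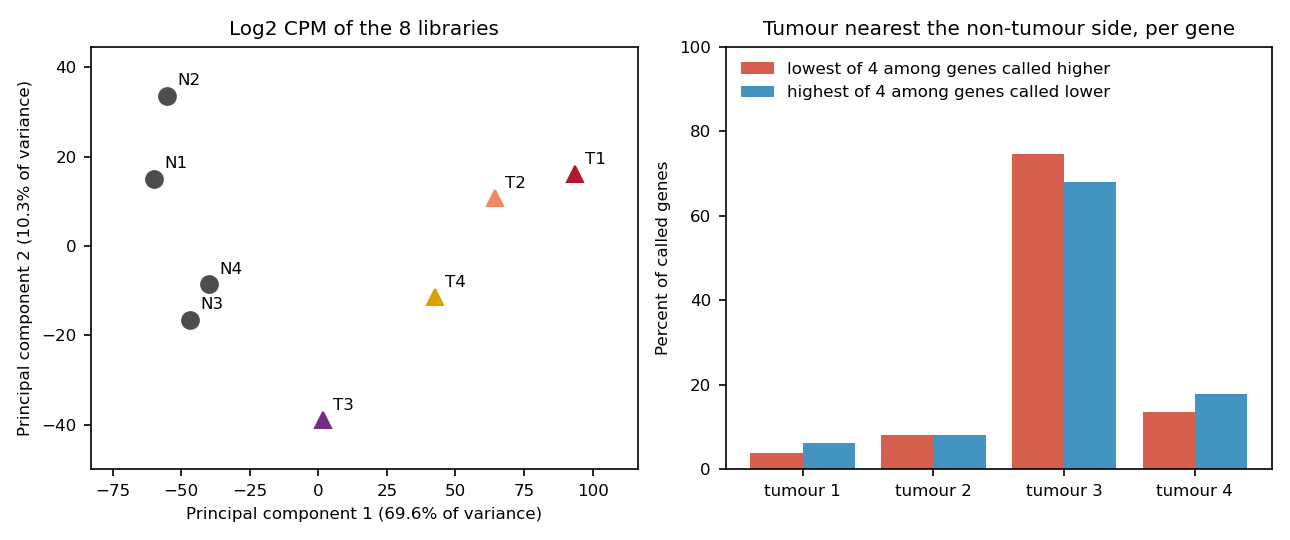
Left: scores of the 4 non-tumour (N1 to N4, circles) and 4 tumour libraries (T1 to T4, triangles) on the first 2 principal components of log2 CPM, which hold 69.6% and 10.3% of the variance. Right: for each tumour, the percent of the 2596 genes called higher in which it was the lowest of the 4 tumours (red) and the percent of the 2568 genes called lower in which it was the highest (blue). Tumour 3 lies nearest the non-tumour libraries, and it was the tumour nearest their side in 74.7% and 67.9% of these genes.

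Tumour pieces differed from non-tumour pieces in 35.8% of the genes tested. Of 14428 genes 5164 were called, 2596 higher (18% of those tested) and 2568 lower (17.8%). The counts given below for gene lists are to be read against these shares. The rises were the larger changes: 1085 of the genes called higher rose at least 2-fold and 500 at least 4-fold, while 650 fell at least 2-fold and 105 at least 4-fold. All 4 tumours lay above all 4 non-tumour pieces in 16.5% of the genes tested and below them in 18.2%. The median log2 fold change over all genes tested was -0.006. Without tumour 3 the number called was 5938, of which 4948 were also called with it.

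The size of the changes differed between tumours. Among the genes called higher, tumour 1 was the highest of the 4 in 56.9% and tumour 2 in 32.3%, while tumour 3 was the lowest in 74.7%. Among the genes called lower, tumour 1 was the lowest in 61.8% and tumour 3 the highest in 67.9%. The median log2 difference from the non-tumour piece of the same mouse was 1.13, 0.93, 0.42 and 0.62 for the genes called higher and -0.86, -0.77, -0.35 and -0.46 for those called lower. These figures describe the 4 tumours over genes selected by the same libraries and carry no test. Alb took 15.9, 13.1, 9.05 and 13% of the counts of tumours 1 to 4. In the exercised tumours numbered 1 to 4 it took 15.3, 14, 10.6 and 12.5%. By this measure tumour 1 was the highest and tumour 3 the lowest in both arms. Afp had another order in the exercised tumours, at 782, 33.3, 57 and 71.9 CPM. Whether the number stands for more than the mouse was not tested. The tumour against non-tumour difference was also set against that in the exercised mice: edgeR called 0 genes for the difference between the arms, with 293 at an unadjusted p under 0.05, and DESeq2 called 0. Those 293 are fewer than the share of 0.05 of all genes tested that chance alone would pass. The p-values of this test thus ran high, and 0 calls do not show that the arms are alike.

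**Figure D2:**
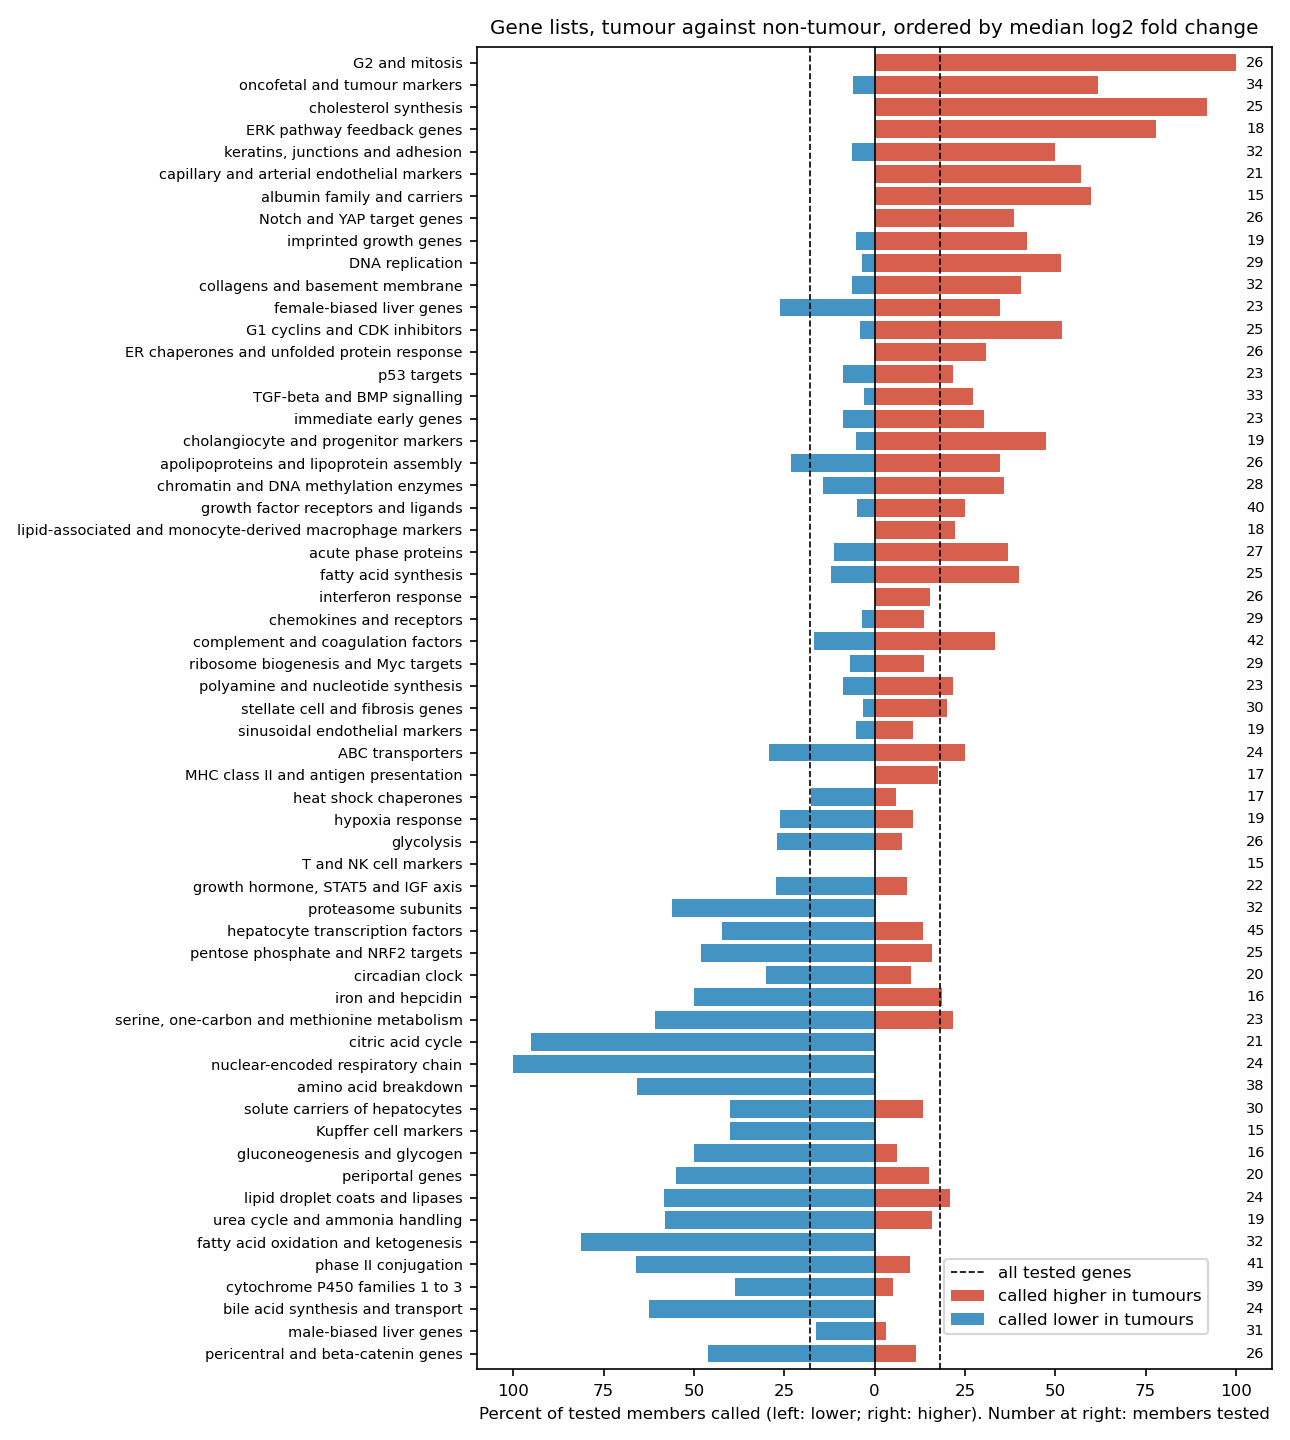
Percent of the tested members of each gene list called higher (red, right) and lower (blue, left) in tumours, for lists with at least 15 members tested, ordered by the median log2 fold change of their members. Dashed lines mark the share of all tested genes called in each direction (18% higher, 17.8% lower), and the number at the right edge is the count of members tested. The lists of mitosis, oncofetal markers and cholesterol synthesis stand at the top and those of bile acid synthesis, male-biased and pericentral genes at the bottom.

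Fetal and tumour-associated transcripts appeared in all 4 tumours. Afp, the alpha-fetoprotein made by the fetal liver, stood at 1.07, 2.84, 1.39 and 1.65 CPM in the non-tumour pieces and at 135, 297, 11.6 and 137 CPM in the tumours. Every tumour lay above every non-tumour piece, with tumour 3 nearest to them. The rise was 6.38 ± 1.17 on the log2 scale (adjusted p = 0.00064). Afp lies on chromosome 5 (90638596 to 90656766, GRCm39, plus strand) between its relatives Alb, the main plasma protein (90608756 to 90624461), and Afm, afamin, a vitamin E carrier (90666791 to 90701402). Both neighbours rose less, Alb by 1.40 ± 0.23 and Afm by 1.58 ± 0.25 (log2; adjusted p = 0.000241 and 0.000204). Gpc3, a glypican of the cell surface that marks fetal liver and hepatocellular carcinoma, stood at 3.03, 5.67, 0.596 and 0.436 CPM in non-tumour pieces and at 475, 104, 60.6 and 256 CPM in tumours (log2 fold change 6.54 ± 1.14, adjusted p = 0.000457). The normal-diet livers held 0.582 to 5.67 CPM of it. Of the 34 tested members of the oncofetal and tumour marker list, 21 rose and 2 fell, with a median log2 fold change of 1.76. Spp1, osteopontin, rose from 77.6, 37.8, 114 and 165 CPM to 1445, 678, 358 and 966 CPM. The 2 that fell were Gpc1, another glypican (-0.74 ± 0.13), and Krt19, a keratin of bile duct cells (-1.12 ± 0.39, adjusted p = 0.0332). The call of Krt19 was lost without non-tumour piece 1 or 4 and without tumour 1, 2 or 4.

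Some transcripts found in tumours were near the detection limit elsewhere. Cdh17, a cadherin of intestine and fetal liver, had counts of 0, 1, 0 and 0 in the non-tumour pieces and of 503, 146, 62 and 175 in the tumours, a ratio of 874 after scaling. Its exact 95% counting interval was 157 to 34569, which covers counting error only. Csn3, a milk casein, had counts of 0, 1, 0 and 0 against 160, 6, 6 and 106. It was high in tumours 1 and 4 and low in tumours 2 and 3. Krt20, an intestinal keratin, stood at 0.112, 1.34, 0.149 and 0.629 CPM in non-tumour pieces and at 69.8, 78.8, 18.1 and 58.5 CPM in tumours (log2 fold change 6.64 ± 0.96, adjusted p = 0.000229). Mep1a, a metalloprotease subunit of kidney and gut brush borders, was at most 0.214 CPM in non-tumour pieces and at 12.8, 8.67, 0.976 and 24.7 CPM in tumours. Miox, which breaks down inositol, was at 15.7, 8.47, 1.77 and 20.5 CPM in tumours and at most 0.375 CPM in non-tumour pieces. In the normal-diet livers Krt20 and Mep1a had no counts.

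Imprinted genes, which are read from 1 parental copy and often control growth, moved unevenly from tumour to tumour. Of 19 tested members 8 rose and 1 fell (median 0.56). H19, a long non-coding RNA of fetal tissue, stood at 0.841, 31.1, 10.9 and 6.24 CPM in the non-tumour pieces and at 46.3, 278, 63.8 and 189 CPM in the tumours. The tumours lay above the non-tumour pieces, whose own values spread widely, and the log2 fold change was 3.56 ± 1.20 (adjusted p = 0.028). The call of H19 was lost without non-tumour piece 1, 3 or 4 or without tumour 2. Meg3, a maternally expressed RNA, stood at 57.3, 0.975, 5.34 and 22 CPM in tumours against 0.953, 0.803, 0.695 and 0.387 CPM, so that tumour 2 was close to the non-tumour pieces (4.91 ± 1.10, adjusted p = 0.00265). Grb10, an adaptor that restrains insulin signalling, rose from 3.59, 3.69, 4.81 and 6.49 CPM to 48.2, 18, 9.11 and 15.2 CPM. Phlda2, a placental growth gene, rose by 2.91 ± 0.66 but stood in tumour 3 at 0.232 CPM, within the non-tumour range of 0.145 to 0.298 CPM. Igf2, a fetal growth factor that shares its locus with H19, had counts of 0, 0, 1 and 0 in non-tumour pieces and of 0, 6, 0 and 1 in tumours, too few to be tested.

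Genes of cell division rose together. All 26 tested members of the G2 and mitosis list rose (median log2 fold change 2.74), as did 15 of 29 DNA replication genes (median 0.55), of which 1 fell. Without non-tumour piece 2 the replication counts were 10 and 0. Mki67, the proliferation marker Ki-67, stood at 6.62, 3.32, 9.23 and 13.8 CPM in non-tumour pieces and at 74.2, 98.5, 44.6 and 59.5 CPM in tumours (3.06 ± 0.44, adjusted p = 0.000141). The normal-diet livers held 0.954 to 1.1 CPM of it, so the non-tumour pieces lay between normal-diet liver and tumour. Tumour 2, and not tumour 1, was the highest for Mki67 and for Cenpf, a kinetochore protein (18.1, 25, 11.7 and 14.3 CPM in tumours). The replication gene that fell was Mcm10, an initiation factor, with 35.1, 54, 38 and 30.1 CPM in non-tumour pieces and 7.25, 12.4, 24.9 and 13.9 CPM in tumours (-1.42 ± 0.42, adjusted p = 0.0151). Mcm10 was not called without tumour 1 or without non-tumour piece 2, and its normal-diet level was 71.7 to 137 CPM.

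Promoters of 2 of these mitotic genes are shown because the list moved as a whole: the kinase Cdk1, which drives entry into mitosis, and Ube2c, which hands ubiquitin to mitotic cyclins. They run from 250 bases before to 50 bases after the start site, from RefSeq on GRCm38.p6, and capitals mark the letters TTTGAA, the cell cycle homology region, and CCAAT, both sought on both strands. The first motif lies at positions -29 to -24 from the start site in Ube2c and at -71 to -66 and -15 to -10 in Cdk1.
Ube2c (chr2:164769679-164769978, plus strand): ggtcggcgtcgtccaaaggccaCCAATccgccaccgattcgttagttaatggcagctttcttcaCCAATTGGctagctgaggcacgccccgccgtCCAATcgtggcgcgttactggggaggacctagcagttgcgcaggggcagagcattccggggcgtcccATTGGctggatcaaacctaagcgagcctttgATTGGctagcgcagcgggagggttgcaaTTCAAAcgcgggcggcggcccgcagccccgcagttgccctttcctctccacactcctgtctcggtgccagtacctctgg
Cdk1 (chr10:69352863-69353162, minus strand): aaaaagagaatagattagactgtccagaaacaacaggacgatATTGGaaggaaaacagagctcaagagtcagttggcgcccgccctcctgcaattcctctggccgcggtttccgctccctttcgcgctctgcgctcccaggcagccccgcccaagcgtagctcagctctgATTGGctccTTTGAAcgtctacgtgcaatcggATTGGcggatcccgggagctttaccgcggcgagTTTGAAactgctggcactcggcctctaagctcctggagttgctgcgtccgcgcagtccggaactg
Of the 21 list members with a promoter in the table, 15 (71.4%) held TTTGAA and 18 (85.7%) held CCAAT, against 20.2% and 41.1% of the 27025 genes in the table (17.9% and 37.4% of its 32851 promoters of the same length). A match of letters is a description of the window and not a binding site.

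Among the G1 regulators, both cyclins and inhibitors of their kinases rose. Ccnd1, cyclin D1, stood at 22.7, 30.6, 30.6 and 52 CPM in non-tumour pieces and at 164, 110, 53.2 and 87.2 CPM in tumours (1.61 ± 0.36). Ccne1, cyclin E1, rose by 2.64 ± 0.41. Cdkn2b, an inhibitor of CDK4 and CDK6, showed no overlap between groups: it stood at 0.449, 0.321, 0.298 and 0.387 CPM in non-tumour pieces and at 50.8, 13.4, 5.06 and 21.1 CPM in tumours (5.93 ± 0.67, adjusted p = 4.9e-05). Its neighbour Cdkn2a, chosen after its values were seen, rose by 3.95 ± 0.98, with 11.5 CPM in tumour 1 and 0.743 to 1.86 CPM in the other tumours. Both lie on the minus strand of chromosome 4 (GRCm39), Cdkn2b at 89224536 to 89229276 and Cdkn2a at 89192708 to 89212890. In all, 13 of 25 G1 genes rose and 1 fell, Rbl2, a pocket protein of quiescent cells (-0.50 ± 0.09). Cdkn1a, the p53-induced inhibitor p21, did not pass (0.65 ± 0.53, adjusted p = 0.361), with 111 CPM in tumour 1 and 49.8 to 55.8 CPM in the other tumours. E2f1 (0.15 ± 0.14, adjusted p = 0.442) and Myc (0.44 ± 0.46, adjusted p = 0.491), transcription factors of growth, did not pass either. Myc stood at 2.97, 2.03, 7.4 and 7.21 CPM in non-tumour pieces and at 3.65, 8.52, 9.01 and 5.43 CPM in tumours. Of 23 p53 target genes 5 rose and 2 fell (21.7% and 8.7%, against 18% and 17.8% of all genes tested).

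In the serine, one-carbon and methionine pathway, the 3 genes of serine synthesis rose while most others fell. Of 23 tested genes 5 rose and 14 fell, with a median of -0.50. Phgdh, the first enzyme of serine synthesis, stood at 0.0561, 0.428, 0.298 and 0.0968 CPM in non-tumour pieces and at 9.5, 13.2, 3.3 and 3.15 CPM in tumours (5.01 ± 0.69, adjusted p = 0.000101). Psat1, the next enzyme, stood at 1.46, 1.66, 1.99 and 1.36 CPM and at 80, 54.3, 17.4 and 24.9 CPM (4.76 ± 0.54, adjusted p = 5.19e-05). In both genes every tumour lay above every non-tumour piece, and tumours 1 and 2 lay above tumours 3 and 4. Psph, the last step of serine synthesis, rose less (1.35 ± 0.22), and Aldh1l2, a mitochondrial folate enzyme, rose by 4.00 ± 0.67. Among the genes that fell was Gnmt, the main consumer of S-adenosylmethionine in hepatocytes. It stood at 835, 1066, 772 and 760 CPM in non-tumour pieces and at 87.6, 123, 354 and 273 CPM in tumours (-2.04 ± 0.39, adjusted p = 0.000872). Mat1a, which makes S-adenosylmethionine and was chosen after its values were seen, fell by 1.21 ± 0.25 on the log2 scale. Ahcy, which clears the by-product of methyl transfer from S-adenosylmethionine, fell as well (-1.56 ± 0.25). So did Cth, which turns cystathionine into cysteine (-1.47 ± 0.25), and Sardh, a sarcosine dehydrogenase (-1.09 ± 0.17).

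Asns, asparagine synthetase, and Slc7a11, the cystine importer, are genes that amino acid shortage is known to raise. Asns stood at 0.393, 0.642, 0.695 and 0.484 CPM in non-tumour pieces and at 21, 24.7, 2.18 and 10.7 CPM in tumours (4.70 ± 0.89, adjusted p = 0.000817). Normal-diet livers held 1.28 to 8.77 CPM, above the non-tumour pieces. Slc7a11 stood at 0.28, 0.321, 0.893 and 0.532 CPM in non-tumour pieces and at 5, 21.7, 1.58 and 1.4 CPM in tumours (3.84 ± 0.93, adjusted p = 0.00455), so that tumour 2 was far above the others. Their promoters are shown because they hold TGATGNAA, the core of the composite element through which ATF4, a stress factor, is known to act on amino acid genes. Capitals mark it (either strand), RefSeq on GRCm38.p6, the same window as above.
Asns (chr6:7693160-7693459, minus strand): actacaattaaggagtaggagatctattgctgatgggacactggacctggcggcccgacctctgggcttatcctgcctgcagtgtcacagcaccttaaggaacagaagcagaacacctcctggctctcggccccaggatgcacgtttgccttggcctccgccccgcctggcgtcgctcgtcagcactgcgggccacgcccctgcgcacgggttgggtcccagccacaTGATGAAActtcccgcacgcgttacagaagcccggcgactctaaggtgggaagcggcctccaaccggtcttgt
Slc7a11 (chr3:50443564-50443863, minus strand): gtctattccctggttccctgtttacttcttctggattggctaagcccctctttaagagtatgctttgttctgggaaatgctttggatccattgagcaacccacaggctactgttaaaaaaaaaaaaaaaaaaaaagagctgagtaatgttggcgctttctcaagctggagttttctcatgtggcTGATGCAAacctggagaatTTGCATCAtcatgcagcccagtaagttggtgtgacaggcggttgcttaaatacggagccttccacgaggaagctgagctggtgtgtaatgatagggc
The motif stood in 5 of 23 promoters of the list of chaperones and unfolded protein response, to which Asns belongs (21.7%), in 0 of 19 of the serine and one-carbon list, and in 4.51% of all genes in the table (3.97% of its promoters). Of the 26 chaperone and unfolded protein response genes 8 rose and 0 fell (median 0.43), among them the disulfide isomerase Pdia6 (1.08 ± 0.22) and the secretory stress factor Xbp1 (0.61 ± 0.16). That count was 4 without tumour 1 or non-tumour piece 1, and 5 without tumour 2 or non-tumour piece 3 or 4.

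**Figure D3:**
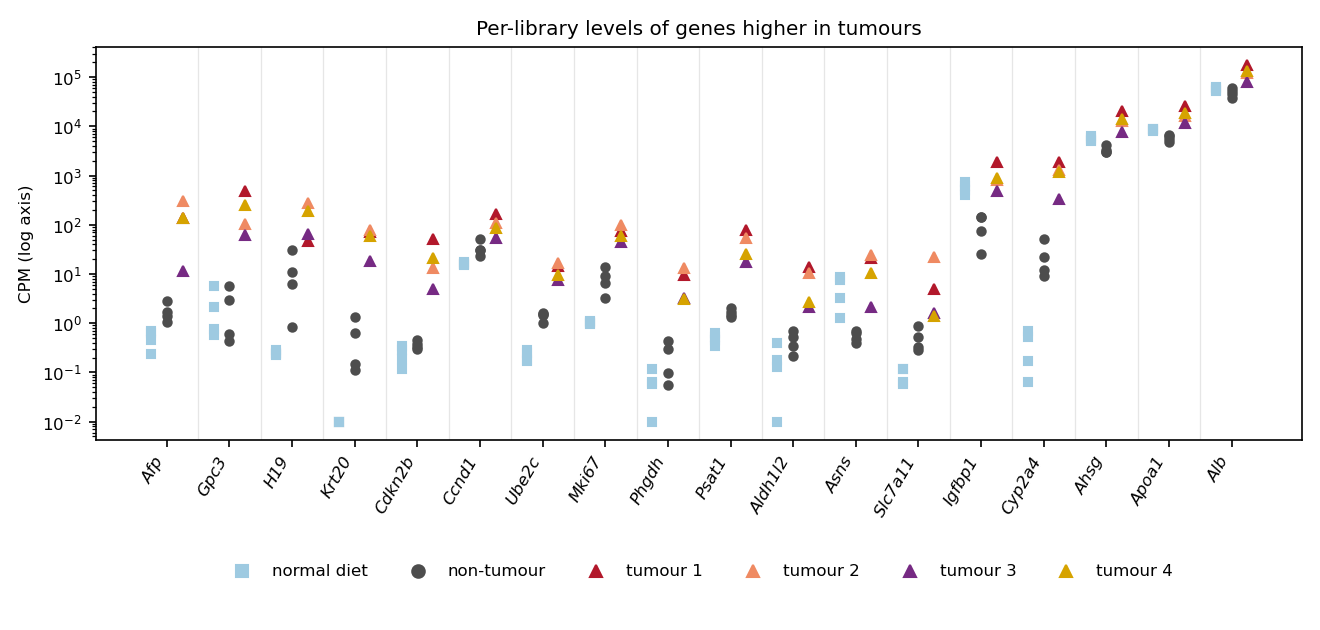
Levels in CPM (log axis) of genes that rose in tumours, 1 point per library: normal-diet liver (squares), non-tumour pieces (circles) and the 4 tumours (triangles, coloured by tumour). Values under 0.01 CPM are drawn at 0.01. Tumour 3 (purple) is the lowest triangle for Afp, Gpc3, Cdkn2b, Asns and Alb, and normal-diet livers held more Igfbp1 and Asns than the non-tumour pieces.

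Several abundant plasma proteins rose. Of 15 albumin family members and carriers 9 rose and 0 fell (median 0.57). Alb stood at 37503, 59819, 44595 and 51274 CPM in non-tumour pieces and at 177001, 122162, 79713 and 132307 CPM in tumours, that is 4.06 to 6.24% and 9.05 to 15.9% of all counts. Ahsg, fetuin-A, rose from 2973, 4167, 3303 and 3014 CPM to 20264, 12763, 7478 and 13851 CPM (2.01 ± 0.29, adjusted p = 0.000127). Trf, transferrin, rose by 1.44 ± 0.27 and Cp, the copper carrier ceruloplasmin, by 1.63 ± 0.20. Among apolipoproteins and lipoprotein assembly genes 9 of 26 rose and 6 fell. Apoa1 and Apoa2, the 2 main proteins of high-density lipoprotein, went opposite ways. Apoa1 rose from 5578, 6523, 6242 and 4767 CPM to 25985, 16375, 11587 and 18250 CPM, and Apoa2 fell from 7052, 6950, 5343 and 4810 CPM to 2639, 2422, 3771 and 3712 CPM. Apom, which carries sphingosine phosphate on that lipoprotein, rose by 2.42 ± 0.29 (adjusted p = 6.17e-05).

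Of 42 complement and coagulation factors 14 rose and 7 fell (33.3% and 16.7%, against 18% and 17.8% of all genes tested). Falls were thus no more frequent than over all genes. F11, coagulation factor XI, rose by 1.88 ± 0.27, the kininogen Kng2 by 1.31 ± 0.23 and the complement inhibitor Cfi by 1.13 ± 0.19. The mannose-binding lectins fell, Mbl2 from 499, 422, 321 and 316 CPM to 54, 46, 262 and 146 CPM (-1.61 ± 0.41) and Mbl1 by 1.13 ± 0.26 on the log2 scale. Of 27 acute phase genes 10 rose and 3 fell, against 9 and 7 with the mouse as a block, 10 and 7 without tumour 3, 3 and 2 without tumour 1, and 6 and 3 without non-tumour piece 1 or 2. Lcn2, an iron-siderophore binding protein, rose from 67.9, 40.9, 87.1 and 80.9 CPM to 1232, 624, 298 and 513 CPM, while normal-diet livers held 1.6 to 15.2 CPM. Il1rn, the interleukin-1 receptor antagonist, rose by 2.46 ± 0.44. Orm1, an orosomucoid of a family of near-identical copies whose counts are uncertain, fell (-0.88 ± 0.23).

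Hnf4a, the central hepatocyte transcription factor, gave no call (-0.02 ± 0.11, adjusted p = 0.896): it stood at 522, 564, 494 and 517 CPM in non-tumour pieces and at 579, 503, 457 and 525 CPM in tumours. Of 45 hepatocyte transcription factors 6 rose and 19 fell (median -0.33), and 12 fell without tumour 1 or without tumour 2. Foxa3, a pioneer factor of liver genes, rose from 22.8, 23.4, 25.7 and 20.7 CPM to 80.3, 57, 39.5 and 60.7 CPM (1.36 ± 0.24). Hnf4g, a relative of Hnf4a found in gut and kidney, rose from 0.107 to 0.436 CPM over the non-tumour pieces to 0.883 to 1.46 CPM over the tumours (2.43 ± 0.45). Cebpa, which keeps hepatocytes differentiated, fell (-0.72 ± 0.16), as did Cebpb (-1.09 ± 0.24) and the xenobiotic receptor Nr1i2 (-0.68 ± 0.15). Nr1i2 stood at 63.9 to 66.9 CPM in the non-tumour pieces and at 37.8 to 46.7 CPM in the tumours, a narrow range in both.

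Genes of nitrogen metabolism mostly fell. Of 38 genes of amino acid breakdown 25 fell and 0 rose (median -0.64), including Mccc2 for leucine (-0.90 ± 0.12), Bckdha for all branched-chain amino acids (-0.74 ± 0.10) and Pcca for propionate (-0.78 ± 0.13). Of 19 urea cycle and ammonia genes 11 fell and 3 rose. Ass1, argininosuccinate synthase, stood at 883, 1308, 933 and 962 CPM in non-tumour pieces and at 300, 252, 501 and 498 CPM in tumours (-1.40 ± 0.24). Otc (-1.14 ± 0.19) and Asl (-1.06 ± 0.16), further enzymes of the cycle, fell similarly. Those that rose included the glutamine importer Slc1a5 (0.58 ± 0.21) and the glutamate dehydrogenase Glud1 (0.49 ± 0.16). The call of Slc1a5 was lost without non-tumour piece 1 or 2 or tumour 3 or 4, and that of Glud1 without tumour 1.

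Sugar metabolism shifted in part. Of 16 genes of gluconeogenesis and glycogen 8 fell and 1 rose. Pck1, the gatekeeper of gluconeogenesis, fell from 1094, 1510, 1594 and 1279 CPM to 317, 140, 924 and 409 CPM (-1.61 ± 0.38), and Fbp1, a later enzyme, by 1.07 ± 0.18 on the log2 scale. The riser was Pygb, the brain form of glycogen phosphorylase, with 6.28, 7.23, 10.3 and 11.8 CPM in non-tumour pieces and 82.1, 83, 36.8 and 62.5 CPM in tumours (2.89 ± 0.30, adjusted p = 3.73e-05). Glycolysis genes did not rise as a group, with 2 of 26 higher and 7 lower. The glycolytic enzyme Eno1 fell (-0.72 ± 0.15). The count of 9 glycolysis calls was 4 or 5 when non-tumour piece 3 or 4 or tumour 1, 2 or 4 was left out. G6pdx, the entry enzyme of the pentose phosphate route, rose from 6.23, 5.94, 8.83 and 8.66 CPM to 29, 22.8, 14.1 and 35.5 CPM (1.77 ± 0.29).

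Mitochondrial transcripts were lower by a similar step in many genes. All 24 tested nuclear-encoded respiratory chain genes fell (median -0.63), as did 20 of 21 citric acid cycle genes (median -0.59) and 6 of 7 mitochondrially encoded genes (median -0.60). Ndufa9, a complex I subunit, had a narrow range: 135, 137, 125 and 114 CPM in non-tumour pieces and 82.6, 82.1, 88.3 and 84.3 CPM in tumours (-0.60 ± 0.08). Cox5b of the same list spread more, at 119, 107, 99.5 and 81.6 CPM and at 50.3, 55.2, 67.7 and 60.6 CPM (-0.80 ± 0.11). The summed level of the respiratory chain list was 6340 to 6970 CPM in non-tumour pieces and 3710 to 4900 CPM in tumours. Mitochondrially encoded genes took 4.54 to 5.9% of the counts of non-tumour pieces and 2.56 to 4.05% of those of tumours. Proteasome subunits also stepped down, with 18 of 32 lower and 0 higher (median -0.28). Psmb5, which carries a catalytic site, stood at 34.6, 30.3, 29.7 and 28.3 CPM and at 23.5, 24.2, 24 and 24.4 CPM (-0.35 ± 0.07).

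In lipid metabolism, cholesterol synthesis genes rose while those of fatty acid oxidation fell. Of 25 cholesterol synthesis genes 23 rose and 0 fell (median 1.44). Lss, which closes squalene epoxide into lanosterol, stood at 31.5, 48.1, 41.9 and 44.4 CPM in non-tumour pieces and at 331, 350, 158 and 296 CPM in tumours (2.77 ± 0.31). Fatty acid synthesis was mixed, with 10 of 25 higher and 3 lower. The desaturases Fads1 (1.02 ± 0.18) and Fads2 (1.10 ± 0.20) rose, while Me1, a source of NADPH, fell from 227, 218, 209 and 227 CPM to 32.2, 91.5, 109 and 115 CPM (-1.34 ± 0.33), and Thrsp, a lipogenic factor, fell by 1.66 ± 0.58 on the log2 scale. The call of Thrsp was lost without tumour 1 or 2 or without any 1 of the 4 non-tumour pieces. Of 32 genes of fatty acid oxidation and ketogenesis 26 fell and 0 rose, and of 24 bile acid genes 15 fell and 0 rose. Eci1, an isomerase of beta-oxidation, stood at 212, 188, 164 and 159 CPM in non-tumour pieces and at 50.2, 75.3, 102 and 88 CPM in tumours (-1.20 ± 0.18).

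Lipid droplet coats and lipases fell more than they rose, 14 against 5 of 24 (median -0.76), or 8 against 4 without tumour 2 or with no filter on low counts. Plin5, which ties droplets to mitochondria, stood at 87, 66.3, 73.3 and 75.6 CPM in non-tumour pieces and at 9.27, 21.7, 36.6 and 26.1 CPM in tumours (-1.69 ± 0.35). Mgll, the monoglyceride lipase, fell by 1.57 ± 0.31 and the hepatic lipase Lipc by 1.61 ± 0.37. Among the lipid carriers, Fabp1, the liver fatty acid binding protein, fell from 5328, 4576, 4014 and 3378 CPM to 1823, 2540, 2874 and 2691 CPM, while Fabp5, the epidermal form, rose from 4.49, 8.08, 10.2 and 6.73 CPM to 107, 119, 65.8 and 162 CPM (3.94 ± 0.58, adjusted p = 0.000153). Lpl, the lipoprotein lipase that adult hepatocytes barely use, rose from 56.1, 37, 68.2 and 68.8 CPM to 208, 146, 172 and 255 CPM (1.76 ± 0.28). Abhd5, the co-activator of the first triglyceride lipase, rose by 1.30 ± 0.17.

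Many drug-handling genes fell. Of 39 tested cytochrome P450 genes of families 1 to 3, 15 fell and 2 rose (median -0.99), and of 41 phase II conjugation genes 27 fell and 4 rose (median -0.87). Without tumour 2 the P450 counts were 7 and 2, with no filter on low counts 8 and 3, and without non-tumour piece 2 they were 8 and 3. Many of these genes have near-identical copies, so that single counts are uncertain. Cyp2e1, which oxidises ethanol and was chosen after its values were seen, stood at 5651, 6428, 3807 and 3322 CPM in non-tumour pieces and at 114, 528, 2270 and 1484 CPM in tumours (-2.13 ± 0.65, adjusted p = 0.0169). Its call was lost without tumour 2. Cyp2c50, of a family of near copies, stood at 342, 399, 188 and 176 CPM and at 0.73, 18.9, 117 and 47.8 CPM (-2.58 ± 0.86, adjusted p = 0.0267). That call was lost without non-tumour piece 1 or 2 or tumour 2 or 4. Nnmt, which methylates nicotinamide, fell from 96.3, 116, 62.9 and 53.2 CPM to 7.08, 2.36, 27.8 and 14.7 CPM (-2.65 ± 0.66, adjusted p = 0.00539). Against this trend Cyp2a4, a steroid hydroxylase with a near-identical copy, Cyp2a5, stood at 11.9, 51.2, 22.4 and 9.2 CPM in non-tumour pieces and at 1851, 1320, 329 and 1189 CPM in tumours (5.63 ± 1.12, adjusted p = 0.00115). Normal-diet livers held at most 0.7 CPM of it.

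Genes of both zones of the lobule fell. Of 26 pericentral and beta-catenin genes 12 fell and 3 rose (median -1.45), and of 20 periportal genes 11 fell and 3 rose (median -0.70). The pericentral counts were 3 lower and 2 higher without tumour 2, 8 and 1 without tumour 1, and 7 and 1 without non-tumour piece 2. Glul, glutamine synthetase, which marks the cells next to the central vein and beta-catenin activity, stood at 1586, 1455, 1254 and 984 CPM in non-tumour pieces and at 28.4, 279, 897 and 524 CPM in tumours. All 4 tumours lay below all non-tumour pieces, by log2 differences of -5.80, -2.38, -0.48 and -0.91 within the mice, but it was not called (-1.61 ± 0.65, adjusted p = 0.0626). It was called with the mouse as a block (-2.15), without tumour 3 (-2.25) and by DESeq2 (-1.59). Etnppl, a periportal phospholyase, fell from 56.8, 129, 51.4 and 80.8 CPM to 0.506, 3.18, 22.6 and 11.5 CPM (-3.06 ± 0.76, adjusted p = 0.00506). Cdh1, E-cadherin, which is periportal in normal liver, rose instead, from 2.97, 12.5, 18.6 and 23.5 CPM to 246, 190, 86 and 172 CPM (3.59 ± 0.58), above the normal-diet range of 23.6 to 57.5 CPM.

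**Figure D4:**
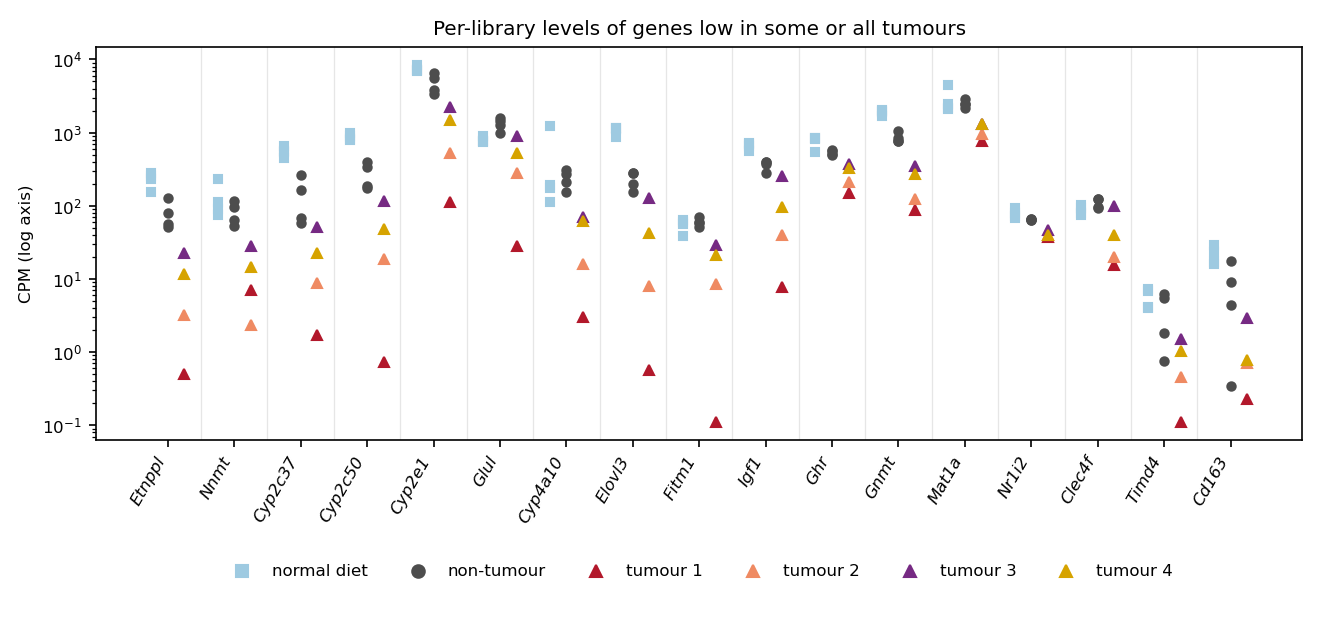
Levels in CPM (log axis) of genes that were low in some or all tumours, 1 point per library, for normal-diet liver (squares), non-tumour pieces (circles) and the 4 tumours (triangles, coloured by tumour). Tumour 1 (dark red) is the lowest point for Cyp2c50, Cyp2e1, Glul, Elovl3, Fitm1 and Igf1, and tumour 3 (purple) the highest of the 4. Glul and Elovl3 did not pass the test.

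Growth hormone acts through its receptor and Stat5b to set the male pattern of liver expression and the output of Igf1. Ghr, the growth hormone receptor, stood at 559, 578, 506 and 497 CPM in non-tumour pieces and at 149, 213, 375 and 324 CPM in tumours (-1.01 ± 0.27, adjusted p = 0.00696). Igf1, chosen after its values were seen, stood at 400, 374, 398 and 279 CPM and at 7.7, 39.6, 256 and 96.9 CPM (-1.86 ± 0.63, adjusted p = 0.0283). Its call was lost without tumour 2 (-1.59) or 4 (-1.81) and without non-tumour piece 1, 2 or 3. Igfals, which holds Igf1 in plasma, fell by 1.67 ± 0.50 and Stat5b, the mediator of growth hormone, by 0.44 ± 0.14. Both calls were lost without tumour 1 or 2, and that of Stat5b also without non-tumour piece 4. Igfbp1, a binding protein that fasting raises, rose from 25.4, 74.5, 142 and 141 CPM to 1859, 829, 496 and 903 CPM (3.42 ± 0.65), while normal-diet livers held 409 to 726 CPM. In the whole axis 2 of 22 rose and 6 fell, and without tumour 2 the counts were 3 and 2. Of 31 male-biased genes 5 fell and 1 rose, Serpina12 (2.69 ± 0.49), and the median was -1.22. With the mouse as a block 14 fell and 3 rose, while without tumour 3 the counts were 16 and 1, without tumour 1 or 2 they were 0 and 1, with no filter on low counts 1 and 1, and without non-tumour piece 2 they were 2 and 1. Of 23 female-biased genes 8 rose and 6 fell, while 2 to 4 fell with no filter on low counts, with only the groups compared, with the mouse as a block, or without tumour 1 or 2 or non-tumour piece 1 or 2.

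Feedback genes of the ERK pathway, which growth factor signalling switches on and which dampen it, rose in 14 of 18 tested members, with none lower (median 1.01). Dusp5, a nuclear phosphatase of ERK, stood at 1.29, 0.963, 2.18 and 1.69 CPM in non-tumour pieces and at 31.4, 14.4, 7.71 and 18.9 CPM in tumours (3.55 ± 0.51, adjusted p = 0.00013). Spry2 (1.97 ± 0.24), Spred2 (1.11 ± 0.18) and Spred1 (0.66 ± 0.10), inhibitors upstream of ERK, rose with no overlap between groups. Immediate early genes were less uniform, with 7 of 23 higher and 2 lower, with 3 higher and 1 lower without tumour 1 and 3 higher and 2 lower without non-tumour piece 1 or 2. Among growth factor receptors and ligands 10 of 40 rose and 2 fell (25% and 5%, against 18% and 17.8% of all genes tested). These counts were 10 and 4 with the mouse as a block, 11 and 7 without tumour 3, and 6 and 1 without non-tumour piece 1. Ddr1, a collagen receptor, stood at 2.13, 3.21, 3.72 and 5.86 CPM and at 33.9, 34.3, 9.39 and 15.1 CPM (2.62 ± 0.57). Mst1r, the receptor of macrophage-stimulating protein, stood at 8.65, 6.05, 0.186 and 8.89 CPM in tumours and at 0.145 to 0.375 CPM in non-tumour pieces, so that tumour 3 did not show the rise of the others (4.71 ± 0.94).

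Notch and YAP target genes rose in 10 of 26 members with none lower. Nrarp, a Notch feedback gene (1.31 ± 0.27), Dll4, a vessel ligand of Notch (1.02 ± 0.24), and Tead4, the partner of YAP (2.56 ± 0.63), were among them. In the TGF-beta and BMP list 9 of 33 rose and 1 fell, against 12 and 5 with the mouse as a block and 11 and 5 without tumour 3. Inhba, the activin A subunit, rose from 10.5, 12.7, 15.8 and 11.6 CPM to 49.3, 84.8, 31.2 and 47.9 CPM (2.07 ± 0.27), and Fst, which binds and blocks activin, from 3.87, 5.25, 6.6 and 9.34 CPM to 64.7, 26.6, 16.6 and 47.9 CPM (2.63 ± 0.42). Bmp7, a morphogen, rose by 2.96 ± 0.50.

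Genes of epithelial contact and of the basement membrane rose. Of 32 keratin, junction and adhesion genes 16 rose and 2 fell (median 0.68), and of 32 collagens and basement membrane proteins 13 rose and 2 fell (median 0.52). Nid1, nidogen, which links laminin to collagen IV, stood at 27.4, 31.1, 38.6 and 62.7 CPM in non-tumour pieces and at 509, 425, 209 and 396 CPM in tumours (3.27 ± 0.44, adjusted p = 0.000105). Col4a3, a collagen IV chain, stood at 0.168, 1.07, 0.298 and 0.242 CPM and at 43.1, 24.9, 13.2 and 41.1 CPM (6.09 ± 0.67, adjusted p = 4.64e-05). Lama5, a laminin chain, rose by 3.0 ± 0.44, and Itga6, a laminin-binding integrin chosen after its values were seen, from 2.58, 3.1, 3.92 and 5.66 CPM to 75, 38.5, 14.9 and 35.6 CPM (3.41 ± 0.56). Cldn1, a tight junction protein, rose by 1.13 ± 0.16. Lamb3, another laminin chain, fell (-1.69 ± 0.43). Of the defining bile duct markers Sox9 (1.52 ± 0.36) and Spp1 rose, Krt19 fell, and Krt7 (-1.01, adjusted p = 0.106, called without non-tumour piece 2) and Epcam (-0.32, adjusted p = 0.638) were not called.

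Endothelial and stellate cells line and support the sinusoids. Of 21 capillary and arterial endothelial markers 12 rose and 0 fell, although 6 rose without non-tumour piece 1 and 7 without non-tumour piece 2. Cd34, which marks capillary-type endothelium, stood at 2.69, 1.61, 2.38 and 2.86 CPM in non-tumour pieces and at 10.2, 9.6, 4.79 and 5.32 CPM in tumours (1.64 ± 0.44). Of the other defining markers of such vessels, Pecam1 rose (0.53 ± 0.19, adjusted p = 0.0328), a call lost without tumour 3 or non-tumour piece 1 or 2, while Plvap (-0.16, adjusted p = 0.543, called at -0.47 without tumour 3) and Vwf (0.37, adjusted p = 0.339) were not called. Of 19 sinusoidal markers 2 rose and 1 fell (2 and 4 without tumour 3, 1 and 0 without tumour 1 or non-tumour piece 1), and the defining markers Stab2 (46.2 to 85.3 CPM in tumours, 39.8 to 72.6 CPM in non-tumour pieces) and Clec4g (22.1 to 49.7 and 33.8 to 43.8 CPM) were not called. Without tumour 3, Clec4g was called lower (-0.56). For stellate cells and fibrosis the list held 30 genes, of which 6 rose and 1 fell (20% and 3.33%, against 18% and 17.8% of all genes tested). These counts were 8 and 5 with the mouse as a block and 4 and 5 without tumour 3 (median -0.27, against 0.08 with it). They were 4 and 0 without tumour 1 or non-tumour piece 1, and 3 and 1 without non-tumour piece 2. Reln, made by stellate cells, rose (1.18 ± 0.22), while Lrat, which stores retinol in them, stood at 3.26 to 32.2 CPM in tumours and at 22.2 to 34.3 CPM in non-tumour pieces (-1.01, adjusted p = 0.175; -1.44 and called with the block, -1.97 and called without tumour 3).

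Kupffer cells, the resident macrophages of the liver, have many markers that were low in tumours 1, 2 and 4. Clec4f, their defining lectin, stood at 124, 124, 96.2 and 94.5 CPM in non-tumour pieces and at 15.6, 19.7, 100 and 40 CPM in tumours, with tumour 3 inside the non-tumour range (-1.32 ± 0.44, adjusted p = 0.0276, and lost without non-tumour piece 1 or 2 or tumour 1, 2 or 4). Folr2, a folate receptor of these cells, stood at 11.4 to 12.3 CPM in non-tumour pieces and at 1.01, 2.21, 7.85 and 4.7 CPM in tumours (-1.57 ± 0.45). Cd163, another marker, overlapped between groups, at 9.2, 17.8, 0.347 and 4.4 CPM and at 0.225, 0.718, 2.97 and 0.775 CPM. Only tumour 1 lay below all non-tumour pieces in it, and in mouse 3 the tumour was the higher piece. Of 15 Kupffer markers 6 fell and 0 rose (median -0.68). The count was not stable: 1 fell with only the groups compared, with no filter on low counts, or without non-tumour piece 1 or 2 or without tumour 1, 2 or 4, and 14 fell without tumour 3. Their summed level was 781 to 947 CPM in non-tumour pieces and 280 to 1070 CPM in tumours. Of 18 markers of lipid-associated and incoming macrophages 4 rose (22.2%, against 18% of all genes tested) and 0 fell, or 5 and 2 without tumour 3. The defining Trem2, Gpnmb, Itgax and Ccr2 were not called, and Spp1, Lpl and Fabp5 belong to this list as well as to lists above.

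Of 15 T and NK cell markers and 12 neutrophil markers, edgeR and DESeq2 called 0, with 0 and 0 at an unadjusted p under 0.05 in edgeR. S100a9, a neutrophil calprotectin subunit, stood at 1.74, 1.55, 22.2 and 1.26 CPM in non-tumour pieces and at 1.63, 1.54, 16.4 and 1.34 CPM in tumours, so that both pieces of mouse 3 were the highest. Csf3r, the neutrophil growth factor receptor, had 9.98 and 10.6 CPM in the pieces of mouse 3 and 2.36 to 4.55 CPM in the other 6 pieces. Lck, a T cell kinase, had 3.18 and 3.25 CPM in mouse 3 and 0.535 to 1.29 CPM in the others. Mouse 3 is also the mouse whose tumour lay nearest the non-tumour pieces, and the part of these cells in that was not tested. Cxcl13, a chemokine that attracts B cells, rose from 0.28, 0.535, 0.695 and 0.29 CPM to 26, 41.4, 2.51 and 12.6 CPM (5.49 ± 1.07), while the 13 B and plasma cell markers gave 1 call, Igha. Cxcl12, a chemokine of stromal and sinusoidal cells, fell from 306, 316, 314 and 292 CPM to 71.9, 110, 238 and 183 CPM (-1.03 ± 0.34), a call lost without tumour 1 or 2 or non-tumour piece 1 or 2. Defining genes of fat and muscle (Adipoq, Lep, Ckm, Acta1) had at most 1 count in any of the 8 libraries, and those of the liver capsule (Msln, Upk3b) had 0 to 84 counts and were not called. Another gene of fat was called: Cfd, the fat cell protein adipsin, fell from 15.5, 6.8, 20.3 and 5.9 CPM to 0.0562, 0, 6.13 and 1.03 CPM (-2.71 ± 0.89, adjusted p = 0.0255). The call of Cfd was lost without any 1 of tumours 1, 2 and 4 or of non-tumour pieces 1 and 3. Cela1, an elastase of the pancreas, rose from 12.1, 15.1, 14.7 and 11.9 CPM to 52.5, 43.7, 22.5 and 50.5 CPM (1.65 ± 0.43). Its normal-diet level was 13.3 to 40.4 CPM. Prss2, the other defining gene of the pancreas, had 0 counts in the non-tumour pieces and at most 3 in a tumour. The part of these tissues in the results was not tested.

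Of 16 iron genes 8 fell and 3 rose (median -0.46): the ferritin chains Ftl1 (-1.10 ± 0.17) and Fth1 (-0.77 ± 0.13), which store iron, fell, while Trf and Cp, which carry and oxidise it in plasma, rose. Of 30 hepatocyte solute carriers 12 fell and 4 rose. Slc27a5, which joins bile acids to coenzyme A, fell from 561, 717, 469 and 485 CPM to 219, 217, 353 and 304 CPM (-1.03 ± 0.18). Among circadian clock genes 2 of 20 rose and 6 fell, against 4 and 9 with the mouse as a block. The clock output factors Hlf (-0.89 ± 0.14) and Tef (-1.12 ± 0.24) fell.

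As a description with no test, the 12 widest ranges of log2 CPM among the 4 tumours were those of Elovl3, Cyp2c54, Mup11, Cyp7a1, Mup17, Cyp2c50, Fitm1, Cyp4a14, Mup14, Slc1a2, Gldn and Mup7. Elovl3, a fatty acid elongase, stood at 0.562, 7.9, 129 and 42.3 CPM in the tumours, against 280, 196, 278 and 154 CPM in the non-tumour pieces and 883 to 1163 CPM in normal-diet livers. It was called with the mouse as a block (-3.54), without tumour 3 (-3.75) and by DESeq2 (-2.31). Cyp7a1, the rate-limiting enzyme of bile acid synthesis, stood at 0.169, 2.98, 40.6 and 18.6 CPM in the tumours and at 26.6, 34.1, 56.4 and 26.8 CPM in the non-tumour pieces. Fitm1, which helps to bud lipid droplets, stood at 0.112, 8.47, 29.4 and 21.3 CPM in tumours (called, but not without tumour 2), and Slc1a2, a pericentral glutamate importer, at 0.506, 16.1, 67.5 and 46.6 CPM (called without tumour 3, -2.38). In each of these 4 the order was the same, with tumour 1 lowest, then tumours 2 and 4, and tumour 3 highest. Gldn, gliomedin, broke this order: it stood at 67.2, 0.564, 22.7 and 53.8 CPM in tumours and at 0.29 to 1.28 CPM in non-tumour pieces, so that tumour 2 lay within the non-tumour range. Mup11 and Mup17 belong to the major urinary proteins, near-identical copies whose single counts are uncertain, and with Mup7, Mup14 and Cyp2c54 they were called only with the mouse as a block or without tumour 3 among the alternatives run. Over all 14428 genes the range of log2 CPM was wider among the tumours than among the non-tumour pieces in 62.3%, with median ranges of 0.5 and 0.4.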

How the data were processed

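RNA from frozen liver was extracted with RNAiso Plus and made into TruSeq Stranded mRNA libraries, per the labels' protocols. The deposited values are raw counts per gene, made by the authors with featureCounts (Subread 2.0.5) on exons of GENCODE vM27 with reversely stranded counting, per the file headers. Trim Galore 0.6.10, STAR 2.7.11a and the build GRCm39 are named in the submitters' processing notes. The headers give no option for read pairs or for reads that map to several places, so genes with near-identical copies are uncertain. Of 55359 identifiers 52083 carried a symbol.

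Counts of all 20 libraries in 5 groups were filtered with filterByExpr (minimum count 10, minimum total 15), scaled by TMM and fitted with the robust quasi-likelihood test of edgeR 4.0.16 in R 4.3.3, with 15 residual degrees of freedom and no block. Tests were two-sided, with Benjamini-Hochberg adjustment over 14428 genes and a threshold of 0.05. The SE is the log2 fold change divided by the root of F. The 8 libraries held 16471378 to 19824518 counts, and 1 CPM was 17.8 to 21.5 counts. Intervals cover counting error only. In data simulated for the tumour against non-tumour comparison over 14217 genes, 37.3% of the 67 genes given a 1.5-fold change were called, as were 67.7% of the 65 given 2-fold and 80.3% of the 66 given 4-fold. Of 124 calls 1.61% were false. Far fewer genes were changed in the simulation than the 5164 called in the data. The Benjamini-Hochberg limit depends on that number, so these shares need not hold for the data.

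Pieces with the same mouse number were taken as paired from their titles. Their deviations from the group means correlated at -0.083, 0.097, 0.213 and 0.052. Those of pieces with different numbers correlated at -0.177 to 0.108, a range that only the pair of mouse 3 lay outside. Alternatives were the mouse as a block, other scalings and filters, only the groups compared, DESeq2 1.42.0 and leaving out each library. Promoter sequences and motif searches used the RefSeq table on GRCm38.p6, matched by symbol.

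Genes are named by rule: 12 fixed genes, the 15 highest and 15 lowest fold changes among called genes whose groups do not overlap, up to 4 called genes in each direction of each of 64 lists by smallest p (or the 2 most abundant where none was called), the 12 widest ranges among tumours and the 5 smallest p-values for the difference between exercised and non-exercised mice. Markers of cell types are named from a fixed list. Genes outside the rule are said to be so. The lists and genes were chosen with earlier results of these data known.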

Additional observations from a re-analysis of the deposited data

Results flagged for a closer look

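The following values stood apart within their group of 4 libraries, with a gap to the nearest other library beyond Dixon's 95% critical value on the log2 scale, a limit that chance passes in about 5% of groups. Tumour and non-tumour groups were both checked for every named gene tested. Over so many groups chance alone could give a list of this length. Neutrophil S100a9 was high in both pieces of mouse 3, at 22.2 CPM in the non-tumour piece and 16.4 CPM in the tumour. Mst1r was low in tumour 3, at 0.186 CPM. Tumour 1 was high for Cdkn1a, at 111 CPM, for Abcc5, at 52.0 CPM, and low for Lamb3, at 2.47 CPM. Among non-tumour pieces, piece 2 was low for Eno1, at 218 CPM, and piece 1 was high for Fbp1, at 1135 CPM. In Cdh17 and Csn3 (0.0535 CPM each) and Mep1a (0.214 CPM), piece 2 was the only non-tumour piece with counts. The cause of these values was not tested.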

How the results depend on the processing

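The number of genes called was 5164, and it was 5154 with RLE scaling, 5145 with upper-quartile scaling, 4272 of 29517 with no filter on low counts, 5022 of 13314 with at least 1 CPM in 4 libraries, 4675 of 13813 with only the groups compared and 5455 with DESeq2. With the replicate block (mouse) it was 5688, of which 4986 were also called without it. Leaving out 1 library at a time gave 3753 (without tumour 1) to 5938 (without tumour 3). The share of calls that were higher ran from 49% to 56.1% over these alternatives. The difference between exercised and non-exercised mice gave 0 calls under each alternative run. Among the genes and markers named, the pairing added the calls of Glul, Elovl3, Cyp2c54, Mup7, Mup11, Mup14, Mup17 and Lrat and ended none. Signs turned only in genes that were not called: over the fits that left out 1 library, log2 fold changes ran from -0.06 to 0.03 for Hnf4a, -0.57 to 0.51 for Csf3r (-0.05 with the replicate block), -2.16 to 1.81 for S100a9, -0.5 to 0.93 for Lck, -0.67 to 0.29 for Gpnmb, -0.07 to 0.59 for Itgax, -0.21 to 0.52 for Ccr2, -0.11 to 0.29 for Stab2, -0.58 to 0.06 for Epcam, -1.91 to 0.76 for Msln and -2.5 to 0 for Upk3b. With no filter, Cfd, Clec4f, Cxcl12, Cyp2c50, Cyp2e1, Fitm1, H19, Igf1, Krt19, Pecam1, Slc1a5 and Thrsp were no longer called. With only the groups compared, which keeps the 8 libraries, the calls lost were those of Cfd, Clec4f, Cyp2c50, Cyp2e1, Fitm1, Glud1, Igf1, Pecam1 and Slc1a5. DESeq2 added the calls of Cyp4a14, Elovl3 and Glul. The cause of these changes was not tested. Depth limits Cdh17, Csn3, Mep1a and Igf2, which had few or no counts in non-tumour pieces.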

Other observations

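Transporters of the ABC family, which pump lipids, bile and drugs out of cells, were divided. Of 24 tested members 6 rose and 7 fell (25% and 29.2%, against 18% and 17.8% of all genes tested). The median log2 fold change was 0.02, and its sign turned with the mouse as a block (-0.02), without non-tumour piece 1 (-0.04) or 2 (-0.01), and without tumour 3 (-0.12). Abca1, which loads cholesterol onto high-density lipoprotein, rose from 163, 180, 169 and 189 CPM to 381, 351, 257 and 344 CPM (0.93 ± 0.12, edgeR adjusted p = 7.4e-05). Abcc5, a nucleotide exporter, rose from 9.59, 7.98, 12.7 and 14.6 CPM to 52, 24.9, 27.4 and 27.2 CPM (1.55 ± 0.28). Abcb4, which moves phosphatidylcholine into bile, fell from 513, 468, 459 and 503 CPM to 143, 190, 307 and 252 CPM (-1.12 ± 0.22). Abcc3, a basolateral exporter of bile acids, fell by 0.83 ± 0.15 on the log2 scale.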
